A study of Mus musculus with 8 samples.

Results

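The genes described here are the 3 eIF4A helicases and their partners in translation initiation, taken by symbol from the footprint and total RNA tables of a study of eIF4A2 in mouse embryonic stem cells. They are Eif4a1, Eif4a2, Eif4a3, Eif4b, Eif4h, Eif4g1, Eif4g2, Eif4g3, Eif4e and Pdcd4, 10 of the 12416 genes present in both tables, and each has 1 row in each table. The cells were J1 embryonic stem cells of strain 129S4/SvJae, grown without feeders in serum and leukemia inhibitory factor. The knockdown groups carried an eIF4A2 shRNA (sheIF4A2-2 or sheIF4A2-3) and the control groups a control shRNA (shNT or shGFP), and both were selected for 3 days with 1 μg/mL puromycin and taken on day 4.5. Before lysis both groups were treated with cycloheximide (0.1 mg/mL, 1 min), which holds ribosomes on mRNA. The sources used here do not name the shRNA of each replicate, so replicates of a group may carry different shRNAs. Ribosome-protected fragments (footprints) and total RNA were sequenced from 2 biological replicates of each group, 8 libraries in all. With 2 libraries against 2, an exact permutation test of a single value cannot go below p = 0.333, and the adjusted p-values below come from limma, which borrows the spread between genes.

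The eIF4F complex recruits the small ribosomal subunit to the capped end of an mRNA. eIF4E binds the cap, an eIF4G scaffold joins it to the rest, and the DEAD-box helicase eIF4A unwinds RNA structure with the help of its cofactors eIF4B and eIF4H. PDCD4 blocks eIF4A by binding it. eIF4A1 and eIF4A2 are closely related proteins that both enter eIF4F, while eIF4A3 is a core protein of the exon junction complex in the nucleus.

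Footprint libraries held 7947827 to 10682677 reads, as read back from the tables, and total RNA libraries 8564582 to 12840349. The highest footprint total, and the 45265 reads given below, are of RPF control 2, whose reads did not pass an automatic check. Values are on the CPM scale (reads over an effective library size). The 10 genes had between 346 and 45265 reads per library, so that counting error alone was at most 5.38% of a value. All 8 embryonic stem cell markers examined were present. Their summed footprints were 4804 to 4825 CPM in the knockdown libraries and 6685 to 7049 CPM in the controls, and their summed total RNA was 4433 to 4484 CPM in the knockdown and 5810 to 6785 CPM in the control. Of 8 fibroblast markers 4 had rows, with summed footprints of 19.7 to 21.0 CPM in the knockdown and 20.2 to 27.0 CPM in the control, and summed total RNA of 12.3 to 13.2 CPM in the knockdown and 14.4 to 21.7 CPM in the control. Endoderm markers (3 of 5 with footprint rows) and trophectoderm markers (2 of 4) summed to at most 11.8 CPM in any library of either assay. Neural markers (3 of 4 with rows) summed to 194 to 231 CPM of footprints in the knockdown and 149 to 193 CPM in the control, and to 171 to 173 CPM of total RNA in the knockdown and 123 to 131 CPM in the control. These sums do not show each gene. Of the 8 stem cell markers, 1 had a positive log2 fold change and 7 a negative one in each assay. A single neural marker reached 180 CPM of footprints, most of the sum of its library. A change of cell state, and its part in the values below, was not tested. In bulk samples fewer cells of a type and less RNA per cell cannot be told apart. Total RNA control 1 and total RNA control 2 stood apart from each other, and which of them is unusual cannot be told from 2 libraries. Over genes of at least 10 CPM the log2 difference between these controls had an SD of 0.45, against 0.135 between the knockdown libraries. For this reason values with 1 of the total RNA controls left out stand beside most of the total RNA results below.

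No member passed the threshold (Benjamini-Hochberg adjusted p below 0.05 over all genes tested) in either assay or in the ratio of the 2, and limma called 0% of all genes in each of these comparisons. At an unadjusted p below 0.05 limma had 12.9% of the 12723 genes tested in footprints, 14.9% of the 13436 in total RNA and 1.55% of the 12358 in the ratio. Eif4a2 and Eif4g3 were the members with an unadjusted p below 0.05 in footprints, and the same pair in total RNA. In footprints the knockdown libraries lay below both controls for 5 members (Eif4a1, Eif4a2, Eif4h, Eif4e and Pdcd4) and above both for 1 (Eif4g3). Over all genes tested the groups did not overlap with the knockdown lower in 22.5% and with the knockdown higher in 22.3%. In total RNA 6 members lay below (the same 5 and Eif4b) and 3 above (Eif4g1, Eif4g2 and Eif4g3), where over all genes 24.6% lay below and 23.3% above. The 5 that were below in both assays compare with 12.4% of all genes tested in both, and Eif4g3, the 1 above in both, with 12.3%. Several of these separations were small, as the values below show. The median log2 fold change of the 10 members was -0.08 in footprints, against 0.01 over all genes, and -0.15 in total RNA, against 0.00 over all genes.

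**Figure D1:**
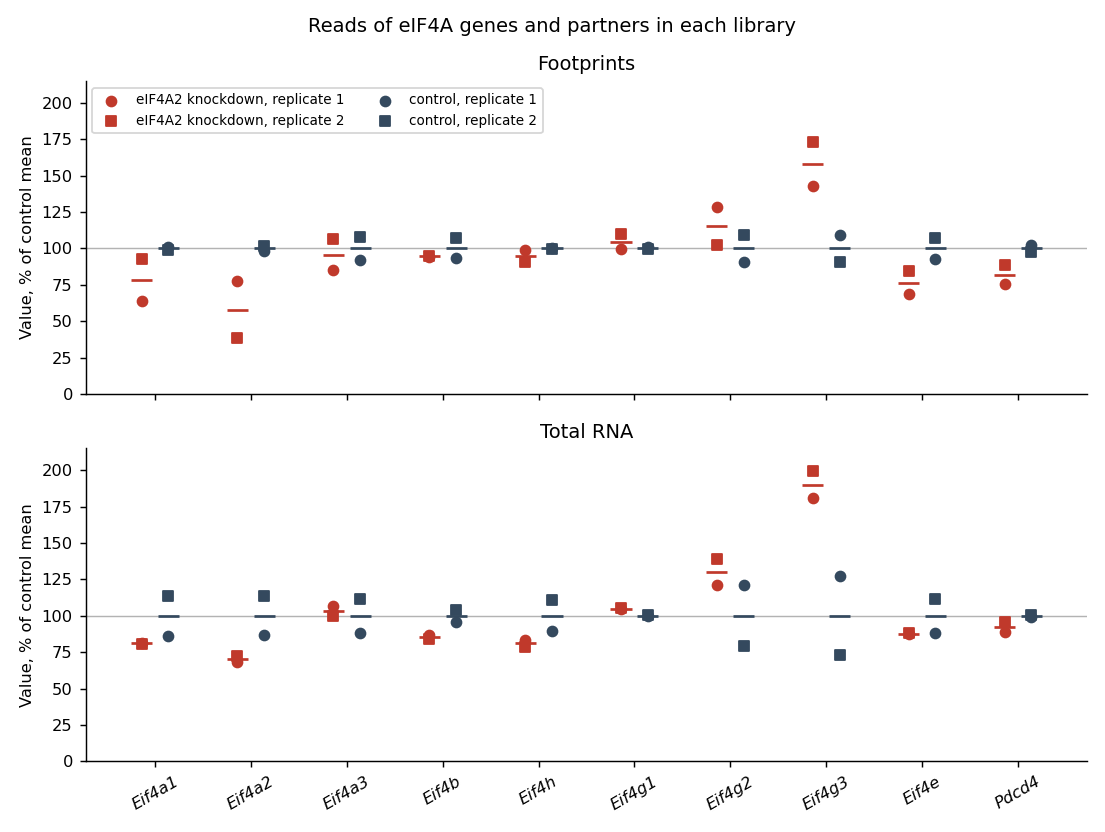
Each point is 1 library, given as a percent of the mean of the 2 control libraries of its assay, with knockdown libraries left of control libraries and a line at each group's mean. Eif4a2 footprints stood at 77.3% and 38.2% of control in the knockdown libraries, and Eif4g3 was above both controls in both assays.

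Eif4a2, the helicase the shRNAs target, was below both controls in each knockdown library of both assays. Its total RNA was 583 and 617 CPM in the knockdown libraries, against 739 and 969 CPM in the controls. The knockdown libraries were close together, and control 2 was well above control 1. The log2 fold change in total RNA was -0.50 ± 0.18 (SE; 95% interval -0.93 to -0.06; limma adjusted p = 0.29), and 7.81% of all genes tested had a lower one. In the authors' deposited tables the log2 fold change of Eif4a2 was -0.51 in total RNA (FDR = 0.221) and -0.79 in footprints (FDR = 0.24). The limma log2 fold change in total RNA was -0.30 when measured against control 1 alone, and -0.69 against control 2 alone. In those shortened fits limma called 25.4% and 46.1% of all genes, because the spread came from the close knockdown pair alone, so these calls are not particular to Eif4a2.

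Eif4a2 footprints differed by a larger ratio between the knockdown libraries than between the group means. They were 311 CPM in knockdown 1 and 153 CPM in knockdown 2, against 395 and 409 CPM in the controls. Knockdown 1 was 2.02 times knockdown 2, while the controls differed 1.04-fold. The log2 fold change was -0.88 ± 0.29 (95% interval -1.53 to -0.22; limma adjusted p = 0.273), and 2.04% of all genes had a lower one. Without knockdown 1 it was -1.38 and passed limma's threshold (adjusted p = 0.0333), in a fit that called 0.157% of all genes. That fit takes its spread from the controls alone and assumes that knockdown 2 varies as they do. Without knockdown 2 it was -0.37 (limma adjusted p = 0.229). The total RNA of the same 2 knockdown numbers differed 1.06-fold. It is not stated in the labels if the footprint and total RNA libraries of a number share a culture.

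Eif4a1, the major eIF4A of most cells, was also below both controls in both assays. Its footprints were 2913 and 4202 CPM in the knockdown libraries, against 4601 and 4486 CPM in the controls. Here knockdown 1 was the lower of the pair, the reverse of Eif4a2. The footprint log2 fold change was -0.38 ± 0.27 (95% interval -0.99 to 0.24; limma adjusted p = 0.599), -0.11 without knockdown 1 and -0.64 without knockdown 2. Its total RNA was 2588 and 2556 CPM in the knockdown, against 2738 and 3604 CPM in the control. The gap to control 1 was small and the gap to control 2 large. The total RNA log2 fold change of -0.29 ± 0.20 (95% interval -0.78 to 0.21; limma adjusted p = 0.552) was -0.09 without control 2, and -0.49 without control 1.

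Summed over both genes, Eif4a1 and Eif4a2 footprints were 3224 and 4355 CPM in the knockdown libraries, against 4996 and 4895 CPM in the controls. The sum in the knockdown was 76.6% of control in footprints and 78.8% of control in total RNA. Eif4a1 contributed most of these reads in every library. The ratio of both genes within a library does not depend on how libraries are scaled. Eif4a2 made up 9.64% and 3.52% of the footprints of the pair in the knockdown libraries, against 7.91% and 8.35% in the controls. The knockdown libraries thus lay on either side of the controls (mean 6.58% ± 4.32 in the knockdown and 8.13% ± 0.317 in the control, SD, n = 2 each; exact permutation p = 1, two-sided). Of the pair's total RNA Eif4a2 made up 18.4% and 19.5% in the knockdown, against 21.3% and 21.2% in the control. These groups did not overlap (18.9% ± 0.765 in the knockdown and 21.2% ± 0.047 in the control, SD, n = 2 each; exact permutation p = 0.333, two-sided, the smallest this design can give). Reads that match both genes equally well cannot be placed with certainty, and no source used here says how the authors counted them, so the split between these paralogs is uncertain.

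**Figure D2:**
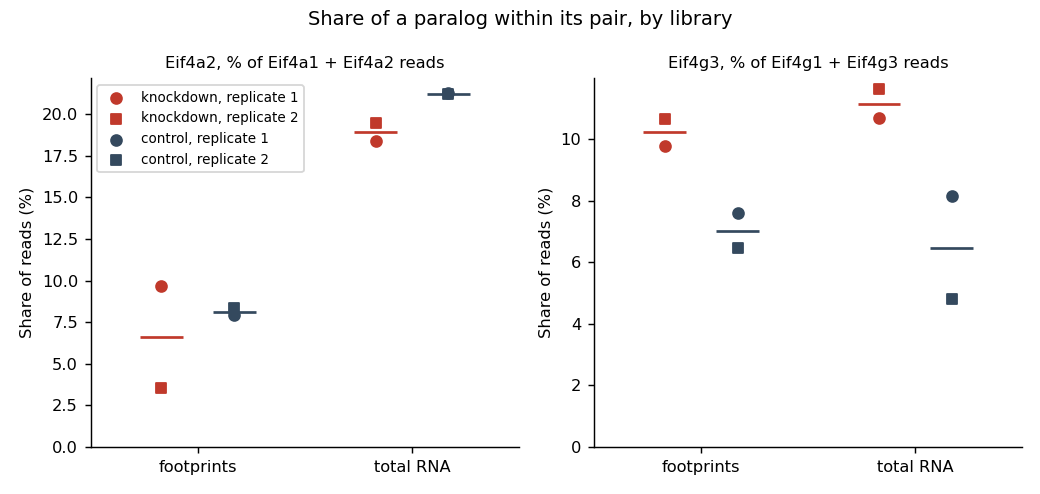
Each point is the share of 1 paralog in the reads of its pair in 1 library, with knockdown left of control and a line at each mean. The Eif4a2 share of footprints was 9.64% and 3.52% in the knockdown, on either side of the controls, while the Eif4g3 share was higher in the knockdown in both assays.

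Eif4a3, the exon junction helicase, had overlapping groups in both assays. Its footprints were 306 and 384 CPM in the knockdown, against 331 and 390 CPM in the control. The total RNA was 326 and 305 CPM in the knockdown and 271 and 341 CPM in the control. In total RNA both knockdown libraries lay between the controls. The log2 fold changes were -0.07 ± 0.18 in footprints (95% interval -0.49 to 0.35) and 0.05 ± 0.16 in total RNA (-0.34 to 0.45). The sign turned in each assay when a library was left out. In footprints the sign also turned with columns rescaled to equal sums, to 0.0564, still below the median of all genes at 0.118 under that scaling. Of 6 further genes of exon junction complex proteins and their partners, 0 passed limma's threshold in either assay, where limma called 0% of all genes. RBM8A and MAGOH form the core of this complex with eIF4A3. Rbm8a footprints were 371 and 340 CPM in the knockdown, against 472 and 452 CPM in the control. That was a log2 fold change of -0.38 ± 0.16 (limma adjusted p = 0.376). Rbm8a total RNA overlapped between groups (-0.14 ± 0.17), and was 0.036 without control 2 and -0.32 without control 1. Magoh overlapped in both assays, at -0.28 ± 0.26 in footprints and -0.07 ± 0.20 in total RNA. The total RNA value of Magoh was 0.20 without control 2 and -0.34 without control 1. Casc3, a further protein of the complex, was at 0.20 ± 0.16 in footprints and 0.36 ± 0.20 in total RNA, above both controls in each. Its total RNA was 56.4 and 61.9 CPM in the knockdown, against 54.4 and 38.5 CPM in the control, and the log2 fold change was 0.12 without control 2 and 0.61 without control 1.

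The cofactors Eif4b and Eif4h, which stimulate the helicase, differed little in footprints. Eif4b footprints were 646 and 652 CPM in the knockdown, inside the controls at 638 and 732 CPM. Eif4h footprints were 315 and 290 CPM in the knockdown and 319 CPM in both controls. The Eif4h groups did not overlap, but knockdown 1 was 98.7% of the control mean. Footprint log2 fold changes were -0.08 ± 0.17 for Eif4b (95% interval -0.47 to 0.32) and -0.08 ± 0.16 for Eif4h (-0.44 to 0.28), and both turned positive with columns rescaled to equal sums (0.0483 for Eif4b and 0.0452 for Eif4h), a scaling that moved the median of all genes to 0.118. Relative to that median both stayed below 0. Total RNA of Eif4b was 962 and 934 CPM in the knockdown, against 1063 and 1150 CPM in the control. Total RNA of Eif4h was 343 and 324 CPM in the knockdown, against 367 and 454 CPM in the control. Both genes were below the controls in total RNA, by -0.22 ± 0.15 for Eif4b and -0.29 ± 0.16 for Eif4h (limma adjusted p = 0.529 and 0.448). Without control 2 the values were -0.17 for Eif4b and -0.14 for Eif4h. Without control 1 they were -0.28 and -0.45 (limma adjusted p = 0.00654 and 0.000144), in the fit that called 46.1% of all genes.

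Of the scaffolds, Eif4g3 (eIF4GII) was higher in the knockdown in both assays, while the main scaffold Eif4g1 hardly differed. Eif4g3 footprints were 80.9 and 98.1 CPM in the knockdown, against 62.0 and 51.3 CPM in the control. Eif4g3 total RNA was 95.2 and 105 CPM in the knockdown, against 67.0 and 38.4 CPM in the control. No knockdown library reached down to a control library in either assay. The means were 157.9% of control in footprints and 189.9% of control in total RNA. The log2 fold change was 0.65 ± 0.18 in footprints (95% interval 0.23 to 1.07; limma adjusted p = 0.225), with 94.6% of all genes below it. In total RNA it was 0.96 ± 0.26 (95% interval 0.32 to 1.61; limma adjusted p = 0.196), with 98.9% of all genes below it. With each footprint library left out in turn the value stayed between 0.51 and 0.79 without passing limma's threshold.

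The total RNA value of Eif4g3 depended on which control was used, and control 2 was the lower of the controls. It was 0.57 without control 2 and 1.36 without control 1, and both passed limma's threshold (adjusted p = 0.000241 and 2.23e-08) in the fits that called 25.4% and 46.1% of all genes. On reads read back from the total RNA table, Eif4g3 passed in DESeq2 (log2 fold change 0.93, adjusted p = 0.0357), which called 2.02% of all genes, and in edgeR's likelihood ratio test (0.92, adjusted p = 0.032), which called 6.13%. It did not pass in edgeR's quasi-likelihood test, which called 0%. In the authors' deposited table Eif4g3 was the 1 member with an FDR below 0.05, in total RNA (log2 fold change 0.93, FDR = 0.0125), where 5.4% of all genes passed. For footprints, where 1.68% of all genes passed, the authors' deposited table gave Eif4g3 a log2 fold change of 0.66 and an FDR of 0.177.

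Eif4g1 footprints were 745 and 822 CPM in the knockdown, against 754 and 744 CPM in the control. Eif4g1 total RNA was 795 and 797 CPM in the knockdown, against 756 and 762 CPM in the control. All 4 total RNA libraries lay within a narrow band. Log2 fold changes, at 0.06 ± 0.17 in footprints (95% interval -0.33 to 0.46) and 0.07 ± 0.14 in total RNA (-0.27 to 0.41), had intervals on both sides of 0. Within the pair of scaffolds Eif4g1 and Eif4g3, Eif4g3 took 9.79% and 10.7% of the footprints in the knockdown, against 7.60% and 6.46% in the control. Of their total RNA it took 10.7% and 11.6% in the knockdown, against 8.14% and 4.80% in the control. The groups did not overlap in either assay (exact permutation p = 0.333, two-sided, in each). This pair was formed after its values were seen.

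Eif4g2 (DAP5), a scaffold that lacks the eIF4E-binding region and serves initiation without eIF4E, was higher in total RNA but not separated in footprints. In total RNA it had 1530 and 1755 CPM in the knockdown, against 1528 and 997 CPM in the control. Knockdown 1 and control 1 were almost equal, and control 2 was far below the rest. The total RNA log2 fold change was 0.41 ± 0.24 (95% interval -0.18 to 0.99; limma adjusted p = 0.478). It was 0.10 without control 2 and 0.72 without control 1. Footprints were 747 and 595 CPM in the knockdown and 528 and 635 CPM in the control, a log2 fold change of 0.20 ± 0.19 (95% interval -0.24 to 0.65).

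Eif4e, the cap-binding protein, was lower in footprints in both knockdown libraries. Its footprints were 191 and 235 CPM in the knockdown, against 259 and 299 CPM in the control. The log2 fold change was -0.39 ± 0.18 (95% interval -0.79 to 0.01; limma adjusted p = 0.402), between -0.54 and -0.24 with each library left out. Total RNA was 173 and 174 CPM in the knockdown, against 174 and 221 CPM in the control. Over all 4 libraries the total RNA log2 fold change was -0.18 ± 0.16 (limma adjusted p = 0.648). It was -0.00845 without control 2 and -0.35 without control 1. Pdcd4, the inhibitor, had footprints of 42.2 and 49.6 CPM in the knockdown, against 57.1 and 54.7 CPM in the control. Its total RNA was 41.6 and 44.7 CPM in the knockdown, against 46.4 and 47.1 CPM in the control. Both knockdown libraries were lower in both assays, by small amounts, with a log2 fold change of -0.28 ± 0.17 in footprints (limma adjusted p = 0.535) and one of -0.11 ± 0.14 in total RNA (limma adjusted p = 0.745).

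**Figure D3:**
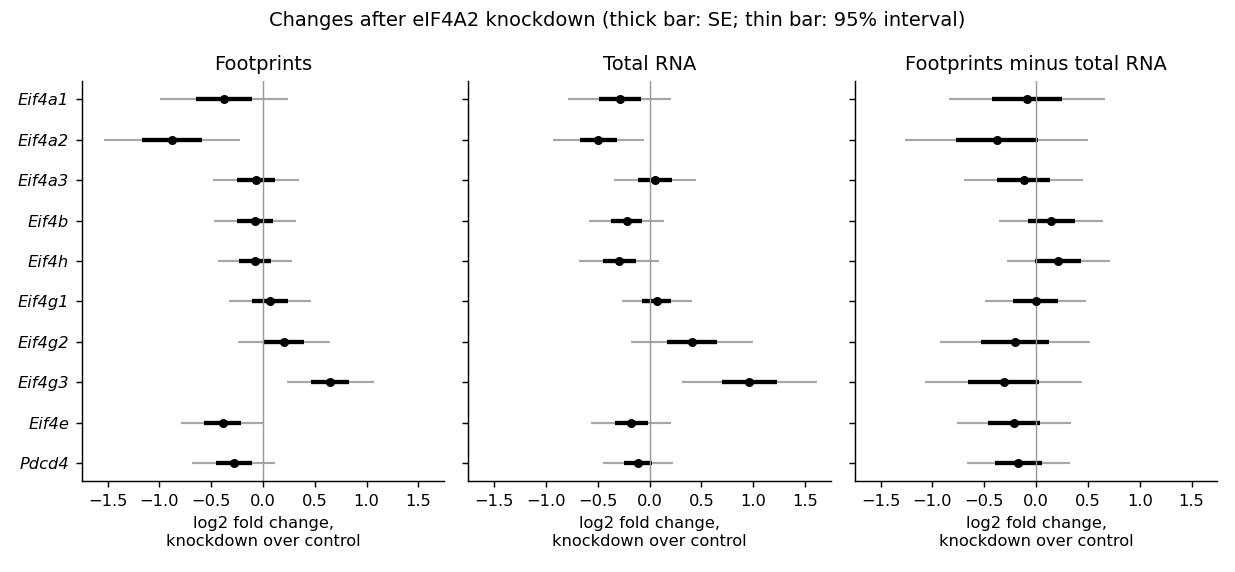
Points are log2 fold changes (knockdown over control, log2(CPM + 1) scale) from limma for footprints, for total RNA and for the difference between these assays, with thick bars for the SE and thin bars for the 95% interval. The intervals of Eif4a2 and Eif4g3 leave out 0 in footprints and in total RNA, and no member's interval does so in the difference.

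The ratio of footprints to total RNA, a measure of translational efficiency, did not differ detectably for any member. The limma interaction over all 8 libraries gave an adjusted p of 1 for each of the 10 after rounding. The tables were scaled separately, so a ratio is set against the other group's ratio of the same gene. Eif4a2 had a ratio of 0.387 in the knockdown and 0.471 in the control (log2 change -0.38 ± 0.40, 95% interval -1.26 to 0.50). That value was 0.13 without RPF knockdown 2 and -0.89 without RPF knockdown 1. Eif4g3 had a ratio of 0.894 in the knockdown and 1.08 in the control (-0.31 ± 0.34, 95% interval -1.08 to 0.45). The Eif4g3 value was 0.08 without total RNA control 2 and -0.71 without total RNA control 1. Eif4h had a ratio of 0.906 in the knockdown and 0.776 in the control (0.21 ± 0.22, 95% interval -0.28 to 0.71). The Eif4h value was 0.061 without total RNA control 2 and 0.37 without total RNA control 1. The other 7 members had log2 changes between -0.21 and 0.15.

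**Figure D4:**
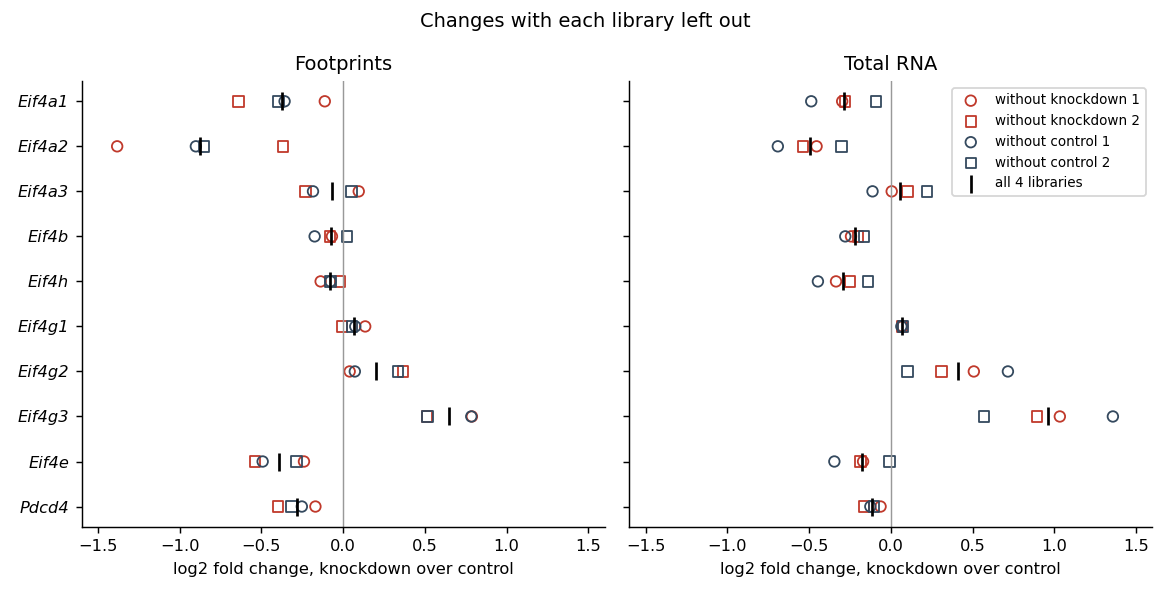
Open symbols give the log2 fold change of each member with 1 library left out (circles for replicate 1 and squares for replicate 2, in red for knockdown and blue for control), and the black bar gives the value with all 4 libraries of the assay. Eif4a2 footprints ranged from -1.38 to -0.37, while Eif4g3 stayed positive in both assays.

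Other regulators of the cap-binding complex were read from a list chosen for their place in the pathway. Of the 13 with values 0 passed limma's threshold in either assay. Limma called 0% of all genes in each assay, so no list could hold a call. Of these 13, 4 lay above both controls and 3 below in footprints, and 3 above and 6 below in total RNA. Over all genes tested, 22.3% lay above and 22.5% below in footprints, and 23.3% above and 24.6% below in total RNA. The list's median log2 fold change was -0.01 in footprints and -0.10 in total RNA. Eif4e2 (4EHP), a cap-binding protein that does not bind eIF4G and represses translation, had footprints of 144 and 160 CPM in the knockdown, against 213 and 251 CPM in the control. Eif4e2 total RNA was 165 and 156 CPM in the knockdown, against 213 and 253 CPM in the control. Eif4e2 was thus below the controls in all 4 knockdown libraries, by -0.60 ± 0.17 on the log2 scale in footprints (limma adjusted p = 0.215) and -0.53 ± 0.15 in total RNA (limma adjusted p = 0.198). The total RNA value was -0.41 without control 2 and -0.65 without control 1.

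Eif4ebp1, which holds eIF4E away from eIF4G until mTOR phosphorylates it, had footprints of 162 and 124 CPM in the knockdown, against 217 and 247 CPM in the control. Eif4ebp1 total RNA was 142 and 136 CPM in the knockdown, against 174 and 169 CPM in the control. Both knockdown libraries were lower in both assays (log2 fold change -0.71 ± 0.18 in footprints, limma adjusted p = 0.187, and -0.31 ± 0.13 in total RNA, limma adjusted p = 0.34). The total RNA value of Eif4ebp1 was -0.33 without control 2 and -0.28 without control 1. Its relative Eif4ebp2 overlapped between groups in both assays (-0.01 ± 0.29 in footprints and 0.05 ± 0.46 in total RNA), and its total RNA controls differed 2.91-fold. Its total RNA value was -0.71 without control 2 and 0.81 without control 1. Eif4enif1 (4E-T), which carries eIF4E into the nucleus and into P-bodies, was above both controls in both assays, at 0.42 ± 0.18 in footprints and 0.47 ± 0.17 in total RNA (limma adjusted p = 0.372 and 0.299). The total RNA value was 0.26 without control 2 and 0.67 without control 1.

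Pabpc1, the poly(A)-binding protein that eIF4G contacts, was above both controls in footprints, with 1011 and 916 CPM in the knockdown and 657 and 726 CPM in the control. The footprint log2 fold change was 0.48 ± 0.18 (limma adjusted p = 0.316). In total RNA it had 1165 and 1391 CPM in the knockdown and 1722 and 831 CPM in the control. There both knockdown libraries lay between the widely spread controls (0.09 ± 0.35), and the value was -0.44 without control 2 and 0.62 without control 1. Its partners Paip1 and Paip2, an activator and an inhibitor of Pabpc1, were at 0.20 ± 0.21 and -0.01 ± 0.17 in footprints. Mknk2, a kinase of eIF4E, was at 0.39 ± 0.28 in footprints, where the groups overlapped, and 0.71 ± 0.28 in total RNA (limma adjusted p = 0.329). Its total RNA was 76.2 and 78.9 CPM in the knockdown, against 64.1 and 34.6 CPM in the control. The total RNA value was 0.27 without control 2 and 1.14 without control 1.

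Of 8 genes of the mTOR and S6 kinase pathway, which acts on eIF4B and PDCD4, 0 passed limma's threshold in either assay. Limma called 0% of all genes there. In footprints 2 of the 8 lay above both controls and 1 below, and in total RNA 2 above and 0 below. Over all genes 22.3% lay above and 22.5% below in footprints, and 23.3% above and 24.6% below in total RNA. Mtor overlapped between groups in both assays (-0.07 ± 0.18 in footprints and 0.02 ± 0.17 in total RNA). The total RNA value of Mtor was -0.17 without control 2 and 0.21 without control 1. Btrc, the ubiquitin ligase subunit that marks PDCD4 for degradation, had footprints of 32.4 and 38.7 CPM in the knockdown, against 43.5 and 40.4 CPM in the control, and overlapping total RNA. Of 4 other helicases of initiation 0 passed in either assay, again with 0% of all genes called. Ddx3x, a DEAD-box helicase that aids the translation of structured mRNAs, was at 0.00 ± 0.19 in footprints and 0.18 ± 0.20 in total RNA, with overlapping groups in both, and its total RNA value was 0.44 without control 2 and -0.073 without control 1.

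The genes most like Eif4a2 over all 8 libraries were Ildr1, Eri1 and Fxyd6, out of 8019 genes with at least 10 CPM in both tables. Likeness was the root mean square difference between log2 profiles centred within each table. It was 0.132 for Ildr1, 0.15 for Eri1 and 0.155 for Fxyd6, where the median gene had 0.477. These 3 genes carried the same unequal pair of footprint knockdowns, as in Fxyd6 with 86.5 and 49.8 CPM in the knockdown, against 102.4 and 104.4 CPM in the control. Ildr1 had 18.1 and 10.9 CPM of footprints in the knockdown, against 23.8 and 25.5 CPM in the control. They were picked for this likeness, so it is a description and no test. The gene most like Eif4g3 was Adam19 (0.069), with total RNA of 82.2 and 92.2 CPM in the knockdown, against 59.4 and 30.9 CPM in the control. The gene most like Eif4a1 was Uchl3 (0.043). Among the members themselves the closest pair was Eif4b and Eif4h (0.082), followed by Eif4a1 and Eif4e (0.094), and the farthest was Eif4a2 and Eif4g3 (0.869).

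Several members share their locus with small nucleolar RNAs, which guide the modification of other RNAs and are cut from introns. By the RefSeq gene table of build GRCm38.p6, used only for names and neighbours because the files were made on another build, Eif4a2 holds 5 such RNAs, Eif4a1 3, and Eif4g1 and Eif4g2 1 each. Of these Gm25835, inside Eif4a1, had values in the tables, with footprint-library reads of 4.16 and 3.24 CPM in the knockdown and 2.87 and 5.15 CPM in the control. Its total RNA was 7.18 and 6.01 CPM in the knockdown and 7.88 and 6.65 CPM in the control. The groups overlapped in both assays, at values too low to be set against those of its host. Rfc4, a subunit of a DNA replication factor, overlaps Eif4a2 in that table. Its groups overlapped in both assays, at -0.37 ± 0.23 for footprints and -0.19 ± 0.17 for total RNA on the log2 scale. The total RNA value of Rfc4 was 0.0074 without control 2 and -0.39 without control 1.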

How the data were processed

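Per the labels' protocols, libraries of both kinds were made with a TruSeq Ribo Profile kit after rRNA removal by Ribo-Zero Gold. Sequencing was single-end at 50 bp, with 4 runs of each footprint library. The authors deposited 1 table per assay. From the values, its library columns hold signal, the reads of each gene divided by an effective library size (CPM scale), beside the authors' log2 fold changes, a likelihood ratio score, and p-values with FDR. The submitters' processing notes list mm9, edgeR 3.26.8, HTSeq 0.11.2, TopHat2 2.1.1 and Bowtie 1.2.3, with no role for each. Strand handling and the treatment of reads that match several genes are not given in the sources used here.

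Every value was within 0.01 of a whole multiple of its column's lowest nonzero value (100% of values), which was taken as 1 read. RPF control 2 did not pass an automatic check of this, so no count test used it. Genes were kept by filterByExpr of edgeR 4.0.16 (minimum count 10, minimum total 15). The main test was limma 3.58.1 (R 4.3.3) on log2(CPM + 1) with eBayes(trend = TRUE), 2 libraries against 2 in each assay, and an interaction of assay and knockdown over all 8 libraries. This scale understates changes of low genes. The procedure was tested on simulated data in which no library stood apart. That test does not cover controls as far apart as those of total RNA. Count tests on total RNA reads, with DESeq2 1.42.0 and edgeR, were alternatives. Apart from sums and shares of reads, levels of different genes were not compared, because no transcript lengths were used. The size of a share also depends on gene length, which was not corrected for. The members and lists, and the rule for named genes (the members, listed pathway genes and nearest profiles), were chosen with earlier results of these data known.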

Additional observations from a re-analysis of the deposited data

How the results depend on the processing

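Over 440 values of members under alternatives, 405 kept their direction and their side of the threshold, 15 passed it and 20 turned in sign. Most of these 15 came from total RNA fits with a control left out. Those fits called a large share of all genes, so the passes are not particular to the members. The number of genes called in footprints was 0, but 21 with columns rescaled to equal sums, 21 with the replicate block, 89 with all 8 libraries in one fit, 3 in edgeR's quasi-likelihood test on reads of 3 libraries, and 1 to 36 with a library left out. In total RNA it was 0, but 636 with the replicate block, 97 with all 8 libraries in one fit, 824 in edgeR's likelihood ratio test, 272 in DESeq2 and 34 to 6191 with a library left out. In the ratio it was 0, and 0 to 1 with a library left out. The cause of these differences was not tested, except that a fit without a total RNA control takes its spread from the knockdown pair alone. With 2 replicates a shared number does not show that libraries are paired. With the replicate block Eif4g3 passed in total RNA (limma adjusted p = 0.00171), in a fit that called 4.73% of all genes. Deviations of same-numbered libraries correlated at 0.231 in footprints and -0.275 in total RNA, and crossed numbers, chosen after seeing the data, gave 924 calls in total RNA.

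Signs turned in these cases. Rescaling to equal sums gave 0.0564 for Eif4a3, 0.0483 for Eif4b and 0.0452 for Eif4h in footprints, and 0.0460 for Eif4g1 in the ratio. That scaling moved the median of all genes to 0.118 in footprints and 0.043 in the ratio. edgeR without RPF control 2 gave 0.0632 for Eif4a3 and 0.0274 for Eif4b. With a library left out, the footprint values ranged from -0.23 to 0.10 for Eif4a3, from -0.17 to 0.0237 for Eif4b and from -0.00737 to 0.13 for Eif4g1, and the total RNA value of Eif4a3 from -0.11 to 0.22. In the ratio they ranged from -0.35 to 0.18 for Eif4a1, from -0.89 to 0.13 for Eif4a2, from -0.29 to 0.0447 for Eif4a3, from -0.0768 to 0.0652 for Eif4g1, from -0.51 to 0.10 for Eif4g2 and from -0.71 to 0.0801 for Eif4g3. The Eif4a2 share of the pair's footprints differed by -1.55 percentage points between knockdown and control, and by -4.61 to 1.51 with a library left out; in total RNA the difference was -2.31 points, and -2.85 to -1.76.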
